A study of Rattus norvegicus with 4 samples.

Results

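Microglia are the resident macrophages of the brain, and here they are 891 of the 26228 nuclei with at least 200 detected genes in single-nucleus RNA libraries from the nucleus accumbens of Sprague-Dawley rats. A nucleus was taken as microglial when Csf1r, Cx3cr1, Ctss, Inpp5d and Arhgap15 together gave 3 or more UMIs (unique molecular identifiers, each standing for 1 captured RNA molecule), with at most 1 UMI of Gad1 plus Gad2 and at most 1 of Drd2 plus Ebf1. The nuclei were thus chosen by the counts of these 9 genes, whose levels are a description and no finding. The 4 libraries came from females after saline, females after cocaine, males after saline and males after cocaine, all aged 90 to 120 days, and values are listed in that order. Cocaine rats received 20 mg/kg intraperitoneally and saline rats an equal volume of saline, daily for 7 days, each time followed by placement in an open field, and tissue was taken 1 h after the last injection. Each library pooled punches from 4 rats, 16 in all, taken with a 2 mm tool centred on the core, and its nuclei were stained with 7-AAD and sorted before loading of about 12500 on the 10x 3′ assay. No allele or transgene separates the groups. Each combination of sex and treatment is thus 1 pooled library, each treatment has 2, and every p-value below measures the spread between pools and not between rats. In pooled tissue, fewer microglia and a weaker recovery of their nuclei cannot be told apart.

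Microglia depend on signalling through the colony-stimulating factor receptor Csf1r, and their identity is set by the ETS-family transcription factor PU.1, encoded by Spi1, together with Irf8, Sall1 and the TGF-beta pathway. They sense nucleotides through P2ry12 and related receptors and neuronal fractalkine through Cx3cr1. They take up debris and synaptic material that has been tagged by complement C1q, whose A, B and C chains are encoded by neighbouring genes. In the striatum they sit among GABAergic spiny neurons whose extracellular dopamine rises under cocaine.

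The genes most particular to these nuclei were myeloid. Among 1762 named genes at 100 or more CPM (UMIs of a gene per 1e6 UMIs of the sum) in every microglial sum, the largest ratios to all other nuclei were those of Cd300a, an inhibitory receptor of myeloid cells, at 928 times, P2ry6, a receptor for UDP, at 884 times, and Abi3, an actin regulator, at 865 times. Slc2a5, a fructose transporter, stood at 701 times and the Fc receptor Fcgr2a at 668 times. These ratios describe nuclei that the gate selected and carry no test. The RefSeq promoter table (GRCr8; 250 bases before to 50 after the start) holds 12 of the 20 genes with the largest ratios. The 7-letter core AGGAAGT, to which PU.1 and other ETS-family factors bind, was searched on both strands (ACTTCCT on the other). It stood in 6 of these 12 promoters (50.0%) and in 2261 of 27457 promoters in all (8.24%). Cx3cr1, which the gate used, is among both the 12 and the 6, and all 12 were ranked in the gated nuclei. The share is thus a description and carries no test, and a match is letters and not a bound site. The promoters of 3 of the 6 are given, with the core in capitals. The antisense match is in Klhl6, which encodes a BTB-kelch protein of immune cells, and Havcr2 encodes the immune checkpoint receptor TIM-3. They lie on the plus strand at chr10:100428576-100428875, chr10:31383675-31383974 and chr11:94475064-94475363.
Cd300a: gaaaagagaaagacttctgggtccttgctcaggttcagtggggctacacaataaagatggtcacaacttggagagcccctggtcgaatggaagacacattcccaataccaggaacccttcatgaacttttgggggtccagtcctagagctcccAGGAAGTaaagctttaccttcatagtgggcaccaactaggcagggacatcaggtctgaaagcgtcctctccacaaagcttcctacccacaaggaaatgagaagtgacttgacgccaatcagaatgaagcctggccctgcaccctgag
Havcr2: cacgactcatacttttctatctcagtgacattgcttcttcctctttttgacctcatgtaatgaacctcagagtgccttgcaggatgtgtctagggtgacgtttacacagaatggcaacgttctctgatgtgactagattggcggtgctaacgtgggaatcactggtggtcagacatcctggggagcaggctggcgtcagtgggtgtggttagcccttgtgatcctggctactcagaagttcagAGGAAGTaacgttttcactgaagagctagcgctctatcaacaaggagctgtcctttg
Klhl6: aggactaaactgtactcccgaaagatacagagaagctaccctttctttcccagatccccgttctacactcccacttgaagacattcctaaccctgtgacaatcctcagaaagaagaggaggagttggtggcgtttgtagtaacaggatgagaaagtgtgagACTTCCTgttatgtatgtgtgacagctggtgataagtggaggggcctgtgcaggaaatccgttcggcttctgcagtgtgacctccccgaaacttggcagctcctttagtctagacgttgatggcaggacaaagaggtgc
Spi1 stood at 152 CPM after saline and 111 after cocaine in females, and 90.6 and 149.6 in males, against 0.459 in all other nuclei. The microglial levels here are over all gated nuclei, those with neuronal RNA included, and are not compared between libraries.

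The label held against its markers. The microglial list kept apart from the gate has 23 genes in the files. Of these, 21 were higher in the gated nuclei than in all other nuclei by more than 10 times in every library. Siglech was at 0 throughout, and Olfml3 was at 0 in 3 of the 4 sums, with 1.85 CPM in the cocaine females. All levels in this paragraph are over all gated nuclei. Of their UMIs, 18.3, 28.1, 40.9 and 33.4% by library came from nuclei with 3 or more neuronal UMIs (below). The homeostatic list, genes of resting microglia, was lowest in the saline males, at 9607.6 CPM. Without those nuclei it was highest there, at 15293, beside 15270 in the cocaine males. Differences between libraries in these levels are thus not read as changes in microglia. P2ry12, the ADP receptor that steers microglial processes, read 702 CPM after saline and 477 after cocaine in females, and 490.0 and 664 in males, with 3.4 in all other nuclei. Tmem119, a surface protein of unknown role that marks resident microglia, read, in CPM, 359 and 398 in females and 252 and 372 in males, and Trem2, a lipid-sensing receptor of phagocytes, 204 and 202 in females and 204 and 215 in males. C1qa, a chain of the complement initiator C1q, read 585 and 679 in females and 609 and 845 in males. Of the genes the gate used, Csf1r stood at 1044 and 905 in females and 821 and 1045 in males, Cx3cr1 at 1048 and 969.6 in females and 949 and 1178 in males, the lysosomal protease Ctss at 3299.7 and 3205 in females and 3240.3 and 4318 in males, the lipid phosphatase Inpp5d at 1870.4 and 1834 in females and 1243 and 1513 in males and the GTPase-activating protein Arhgap15 at 3232 and 2711 in females and 2357 and 2143 in males.

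**Figure D1:**
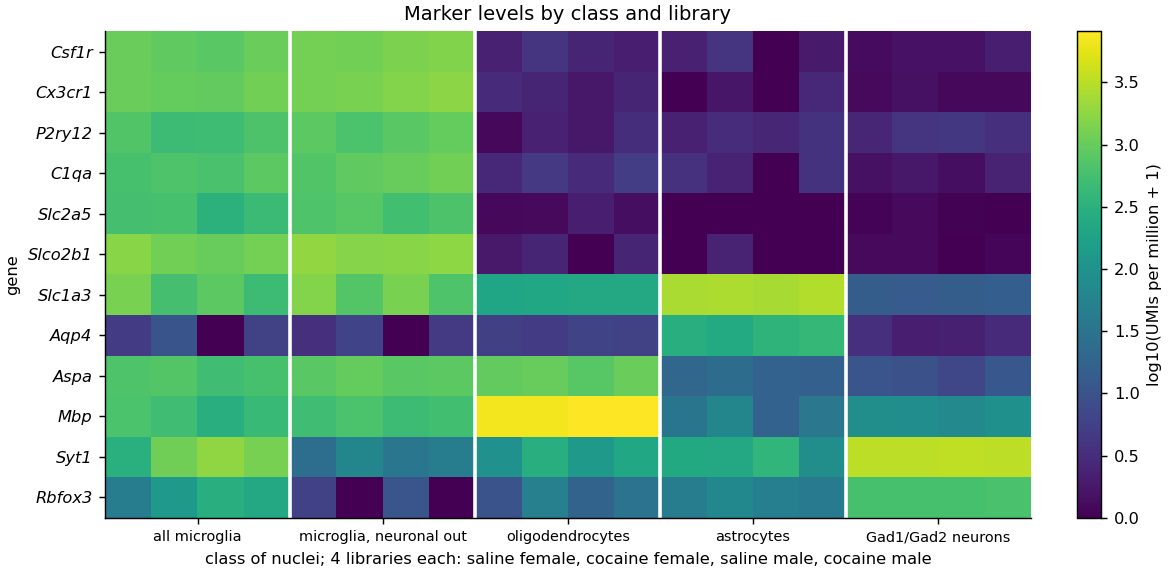
CPM, as log10 of the level plus 1, of 12 marker genes (vertical axis) in 5 classes of nuclei, with the 4 libraries side by side in each (horizontal axis). Csf1r, Cx3cr1, P2ry12 and C1qa are bright only in microglia, Slc1a3 is bright in astrocytes and clear in microglia, and Syt1 fades in microglia once neuronal nuclei are left out.

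The edge of the gate held few nuclei. Exactly 3 gate UMIs were found in 1, 7, 8 and 7 nuclei by library, and 2 gate UMIs, just outside, in 10, 11, 14 and 25. The median member had 22, 18, 17 and 18 gate UMIs. A further 27, 30, 13 and 33 nuclei reached the gate and failed the limits on neuronal genes. In 1, 5, 5 and 7 members Arhgap15 was the only gate gene read. With Arhgap15 off the gate, 221 of 224, 264 of 271, 164 of 173 and 211 of 223 members remained. No member barcode was shared between libraries, and a doublet caller marked 19, 25, 11 and 20 members, which stay in the results below unless stated.

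Microglia held fewer UMIs than their neighbours. The median member held 1826.5, 1433, 1231 and 1188 UMIs in the same order, against 5401, 5253, 5151.5 and 4492 in all other nuclei, and the microglial sums held 498829, 540415, 353054 and 414361 UMIs. Female microglia were thus the deeper ones, in both treatments. The libraries held 31484217 to 40737786 UMIs in all.

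Neuronal RNA entered the sums unevenly. A set of 60 members, 11, 20, 12 and 17 by library, carried 3 or more UMIs of 13 neuronal genes that the gate does not use. They were 4.91 to 7.62% of members but 18.3% of the microglial UMIs in the saline females, 28.1% in the cocaine females, 40.9% in the saline males and 33.4% in the cocaine males. Their median depth was 6226 to 9873 UMIs. In the full sums, genes of the neuronal and spiny-neuron lists stood at 13.2, 25.4, 34.9 and 29.0% of their level in all other nuclei. Without the 60 nuclei they stood at 4.55, 5.20, 4.06 and 4.65%, a narrower range. There both cocaine libraries lay above both saline ones, as in 19.2% of single genes tested, while in the full sums the saline males were highest. For this reason each comparison is given for all 891 nuclei and again for the 831 with fewer than 3 of these UMIs (below, without neuronal nuclei), a choice made after the data were seen.

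**Figure D2:**
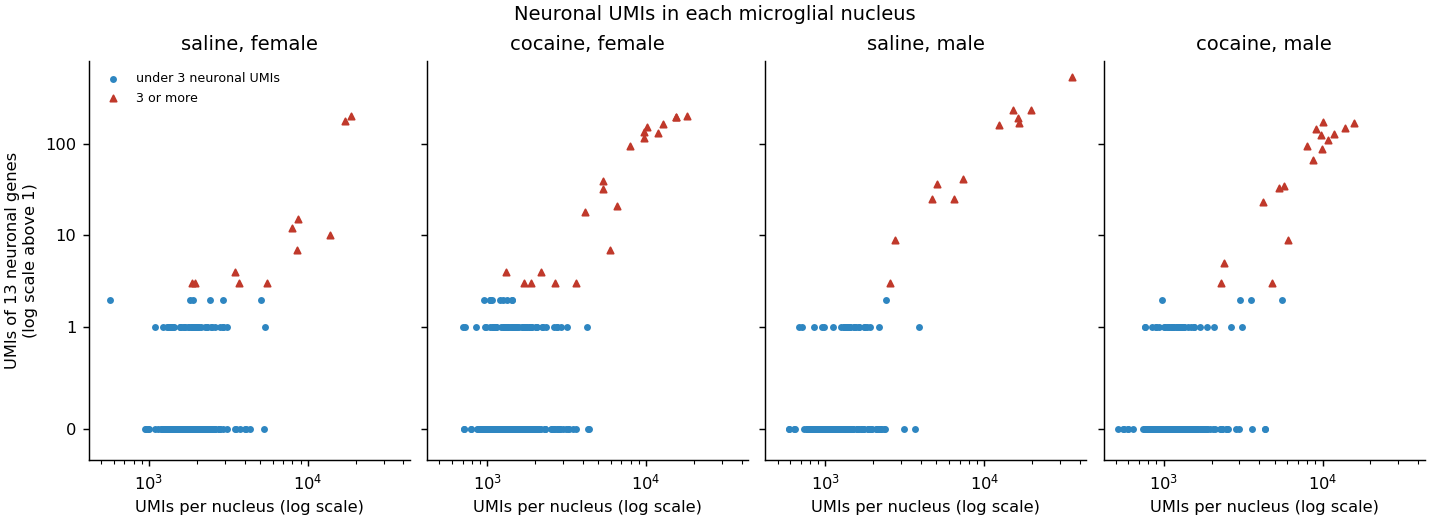
Each point is 1 microglial nucleus, with its UMIs on the horizontal axis and its UMIs of 13 neuronal genes on the vertical axis (both log scales, the vertical one above 1), 1 panel per library. The nuclei at 3 or more neuronal UMIs (red triangles), 11, 20, 12 and 17 of them, lie mostly at the deep end.

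Markers of other cell types were read as well. The glutamatergic neuron list summed to 144, 294, 357 and 434 CPM over all gated nuclei. That was above the 78.7, 136, 76.3 and 112 CPM of all other nuclei. Without neuronal nuclei it read 7.36, 15.4, 9.58 and 21.8 CPM. The gate limits neurons by Gad1, Gad2, Drd2 and Ebf1 alone, so it does not bar neurons without these genes. How many neuronal nuclei were whole neurons was not tested. Markers of border macrophages, the macrophages of vessels and meninges, summed to 137 and 149 CPM in the saline and cocaine females and 335 and 449.5 in the males without neuronal nuclei, and their marker Mrc1, a mannose receptor, was read in 15 nuclei. The monocyte and granulocyte list summed to 68.7, 30.9, 24.0 and 94.3 CPM without neuronal nuclei, above the 1.05 to 1.99 of all other nuclei. Over all gated nuclei 2, 3, 2 and 3 of its 9 genes had a UMI, from among Plac8, Itga4 and Ngp. Its genes Ccr2, S100a8 and S100a9 were at 0 in all 4 libraries. The lymphocyte list, of which 6, 5, 2 and 6 of 14 genes had a UMI, summed to 250.3, 425, 235 and 381 CPM without neuronal nuclei. Both cocaine libraries thus lay above both saline ones, as in 19.2% of single genes tested. The T cell genes Cd3g and Cd3d and the B cell genes Ms4a1 and Cd79b were at 0 in all 4 libraries. Most of the sum was Skap1, an adaptor of T cell signalling, at 115 and 178 in females and 28.7 and 90.6 in males, and Il7r, the interleukin-7 receptor, at 120.2 and 226 in females and 206 and 272 in males. Neither passed (0.83 ± 0.30, edgeR adjusted p = 0.278, and 0.64 ± 0.22, adjusted p = 0.214), and both were above 0 in all 26 fits made of the cocaine comparison. Astrocyte markers summed to 19.6, 121, 134 and 102 CPM without neuronal nuclei, against 429 to 511 in all other nuclei. Aqp4, the astrocytic water channel, was at 2.45 and 5.15 in females and 0 and 3.63 in males. Oligodendrocyte markers summed to 2122, 2717, 2055 and 2570 CPM without neuronal nuclei, higher in both cocaine libraries, as in 19.2% of single genes tested. All other nuclei, oligodendrocytes included, read 2736, 2322, 2138 and 2423 CPM, so this list was not low in the microglial sums. Aspa, which is on that list, was read in 573 of the 831 nuclei.

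The share of microglia overlapped between the treatments. Microglia were 3.51% of nuclei in the saline females (224 of 6375, exact 95% interval 3.08 to 4.00%), 3.73% in the cocaine females (271 of 7265, 3.31 to 4.19%), 2.78% in the saline males (173 of 6213, 2.39 to 3.22%) and 3.50% in the cocaine males (223 of 6375, 3.06 to 3.98%). The saline mean was 3.15 ± 0.52% (SD, n = 2) and the cocaine mean 3.61 ± 0.16% (SD, n = 2), a difference of 0.465 percentage points (exact two-sided permutation test, p = 0.667, where 2 against 2 allows no p below 0.3333). The saline males were lowest, and the saline females fell between the cocaine libraries. With every nucleus thinned to 1000 UMIs, which left out 45, 135, 176 and 259 shallower nuclei, the shares were 3.44, 3.41, 1.92 and 2.70%. With other-glia nuclei left out the shares did not overlap, at 2.149 and 2.395% in females and 2.237 and 2.573% in males, and with neuronal nuclei and doublets out as well and Arhgap15 off the gate (the combined gate) they were 2.102 and 2.230% and 2.092 and 2.353% (exact two-sided p = 0.3333 in each, the smallest possible). The intervals cover counting error only.

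Over all 891 nuclei, cocaine called no gene. edgeR's quasi-likelihood test with sex in the model passed 0 of 7922 genes (0.0%) at an adjusted p of 0.05, with 299 (3.77%) under an unadjusted 0.05, and DESeq2 also passed 0. The higher genes with the smallest p included synaptic ones. Shisa6, an AMPA receptor auxiliary protein, read 8.02 CPM after saline and 148 after cocaine in females, and 48.2 and 162 in males (log2 difference 2.61 ± 0.43, adjusted p = 0.115), and Clstn2, a synaptic calsyntenin, read 66.2 and 372 in females and 212 and 463 in males (1.72 ± 0.32, adjusted p = 0.186). Both were higher in each cocaine library than in either saline one, as were 18.4% of the genes tested. Without the neuronal nuclei Shisa6 was at 0 and 2.57 in females and 0 and 0 in males and Clstn2 at 7.36 and 5.15 in females and 0 and 0 in males.

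Among the lower genes with the smallest p were some that microglia carry themselves. Slc1a3, the glutamate and aspartate transporter GLAST, read 1331 CPM after saline and 568 after cocaine in females, and 836 and 473 in males, a log2 difference of -1.08 ± 0.21 (SE; edgeR adjusted p = 0.277). Itga6, the integrin subunit that pairs into laminin receptors, read, in CPM, 759.8 and 363 in females and 609 and 379 in males (-0.93 ± 0.22, adjusted p = 0.715). In both genes each cocaine library lay below both saline libraries, as in 11.8% of genes tested, and neither passed.

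Without the neuronal nuclei, cocaine called 35 of 6167 genes (0.568%), 19 higher (0.308%) and 16 lower (0.259%), with 491 (7.96%) under an unadjusted 0.05. This number rests on the model: edgeR estimated no variation in spread from gene to gene in these sums, DESeq2 called 1 gene, Slc1a3, and edgeR without the sex term called 4. How many of the 35 were called also changed with the library left out. Each of those fits dropped the sex term as well and left 1 library in a treatment. The part of a single library thus cannot be told apart from that of the model. All 35 went one way in both sexes, and all 16 lower genes were below 0 in each of the 26 fits made. The genes were chosen by p in these same libraries, which the fits reuse, so their signs are a description and no support. Of the 19 higher genes, 6 were above 0 in every fit that tested them. Each adjusted p given below for cocaine in these 831 nuclei reached 1.0 in at least 1 of the other fits.

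The 16 lower genes were microglial in level. None was below its level in other nuclei, the median one was read in 471.5 nuclei, and the top nucleus held a median of 1.12% of its UMIs. Slc1a3 had the smallest p of them and fell from 1558 and 1313 CPM in the saline females and males to 741 and 682 after cocaine, so the 2 groups did not overlap, as in 15.4% of genes tested, which were likewise lower. The change was -1.04 ± 0.12 on the log2 scale (edgeR adjusted p = 6.88e-14; from that to 1.0 over the alternatives, with 12 of 26 fits calling it). The ratio of cocaine to saline was -1.07 in females and -0.94 in males on the log2 scale. Over the 26 fits the log2 difference ran from -1.39 to -0.76. Fits without 1 library, which also drop the sex term, did not all call it.

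Slc1a3 is best known from astrocytes. Astrocyte nuclei of the same libraries read 2566 and 2669 in females and 2511 and 2891 in males, with a log2 difference of 0.10 (adjusted p = 0.908), and oligodendrocytes read 209 and 213 in females and 225 and 229 in males (-0.05, adjusted p = 0.91). The summed astrocyte markers of the microglia, 19.6 and 121 in females and 134 and 102 in males, are given beside it, with Aqp4 at or under 5.15 CPM, and the part of astrocyte RNA in the difference was not tested. Slc1a3 was read in 512 of the 831 nuclei, and the background expected for it from its level in all other nuclei was 5.94 to 7.77 CPM. That background is scaled by the neuronal and spiny-neuron lists alone and does not measure RNA from astrocytes or other glia.

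Itga6 fell by 0.93 ± 0.14 on the log2 scale, from 866 to 461 CPM in females and 934 to 504 in males (edgeR adjusted p = 4.74e-08; up to 1.0 over the alternatives). Sema6a, a transmembrane semaphorin, read 665 and 275 in females and 412 and 363 in males, where the male pair lay close and the female pair did not. Crim1, a membrane protein that binds bone morphogenetic proteins, read 579 and 327 in females and 436 and 315 in males. St8sia4, which adds polysialic acid, read 464 and 247 in females and 450.4 and 377 in males, and the calcium- and lipid-binding Anxa3, nearly absent from other nuclei at 1.78 CPM, read 1202 and 919 in females and 1581 and 1120.2 in males.

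Il6st, the gp130 subunit shared by receptors of the interleukin-6 family, fell by 0.71 ± 0.15 on the log2 scale and read 697 and 419 in females and 637 and 417 in males. Adcy9, an adenylyl cyclase, read 886 and 556 in females and 919.9 and 555 in males, a difference of -0.73 ± 0.14. Rasgrp3, a guanine nucleotide exchange factor for Ras and Rap, read 582 and 371 in females and 671 and 377 in males, and Sipa1l2, which acts on Rap, 626 and 422 in females and 532 and 377 in males. In Il6st, Adcy9 and Rasgrp3 both cocaine libraries were below both saline ones, as in 15.4% of genes tested.

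The remaining lower genes act inside the cell. Nav3, a microtubule-binding protein, read 6762 CPM after saline and 4969 after cocaine in females, and 6046 and 4231 in males, a difference of -0.51 ± 0.09 (edgeR adjusted p = 6.53e-06; up to 1.0 over the alternatives). Numb, an endocytic adaptor that opposes Notch, read 1440.3 and 967 in females and 1361 and 964 in males (-0.57 ± 0.12), and Mbnl1, a splicing regulator, 3165 and 2406 in females and 2788 and 2248 in males. Ppm1e, a protein phosphatase, read 1329.9 and 869.7 in females and 1073 and 874 in males, and Tsc22d1, a TGF-beta-responsive leucine-zipper protein, 797 and 599.5 in females and 939 and 619.9 in males. One gene had an identifier only. Slc1a3, Itga6 and Nav3 were also the lower genes called when border macrophage nuclei were left out besides (adjusted p = 0.00465, 0.0239 and 0.0423), and again when other-glia nuclei and doublets were left out and Arhgap15 was taken off the gate (adjusted p = 0.000782, 0.0201 and 0.0229).

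**Figure D3:**
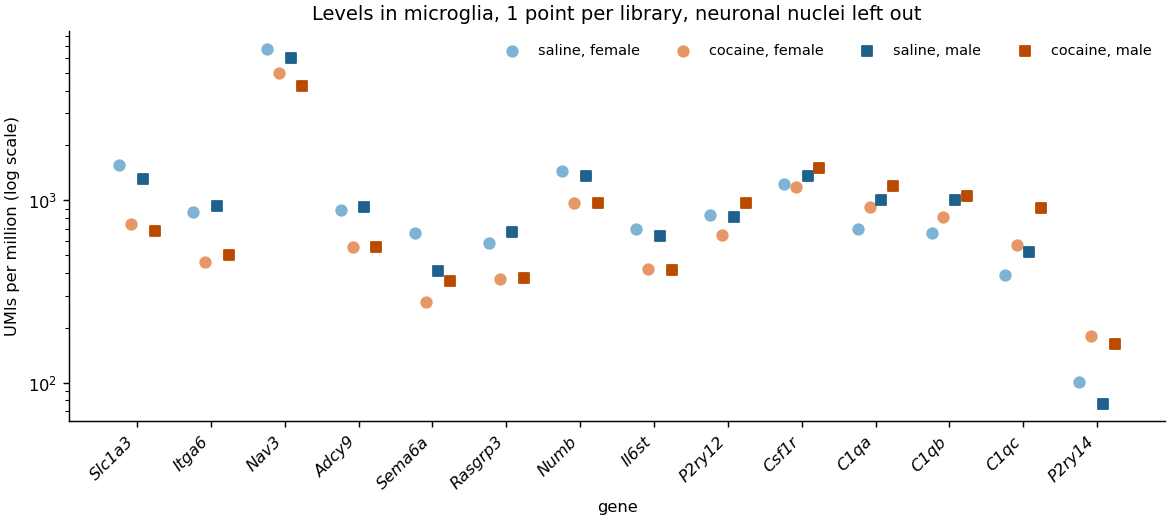
CPM (log scale, vertical axis) of 14 genes (horizontal axis) in the 831 nuclei, 1 point per library, circles for females and squares for males, blue for saline and orange for cocaine. Slc1a3, Itga6 and Il6st show both cocaine points below both saline points, as do 15.4% of genes tested. Csf1r and P2ry12 show the 2 treatments interleaved, and C1qa, C1qb and C1qc stand higher in males than in females within each treatment.

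Among the higher genes, C1qc was the one with a plainly microglial level. It encodes the C chain of C1q and read 390.1 CPM after saline and 566 after cocaine in females, and 522 and 910.0 in males, a difference of 0.63 ± 0.15 (edgeR adjusted p = 0.00386; 0.00251 to 1.0 over the alternatives, with 4 of 26 fits calling it). It was higher after cocaine within each sex, but the cocaine females, at 566, lay barely above the saline males, at 522. With border macrophage nuclei left out as well, the adjusted p of C1qc was 0.236. In that fit 5 genes were called, and all 35 genes kept their sign. There edgeR did estimate variation in spread from gene to gene. The part of those nuclei in the larger p thus cannot be told apart from that of the model. The A and B chains did not pass: C1qa read 694 and 913 in females and 1006 and 1196 in males (0.30 ± 0.13, adjusted p = 0.44) and C1qb 660.0 and 813 in females and 1001 and 1051 in males (0.16 ± 0.13, adjusted p = 0.833).

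The other 18 higher genes were sparse, or low beside other nuclei. Ano5, a calcium-activated scramblase of the anoctamin family, read 0 and 116 in females and 129 and 134 in males. The saline females hold no UMI of it, so that up to 7.36 CPM are allowed there, and no fold is given. The other 17 were all below their level in other nuclei. Opcml, a neuronal cell adhesion protein, read 27 and 56.6 in females and 24 and 653 in males, and 142 of its 218 UMIs came from 1 nucleus. The oligodendrocyte gene Bcas1 read 93.2 and 106 in females and 43.1 and 439 in males, with 27.8% of its UMIs in 1 nucleus, and Kazn, a junction protein, 51.5 and 149 in females and 14.4 and 181 in males. Auts2l1 read 269.9 and 551 in females and 158 and 373 in males and Nkain2, a sodium pump-interacting protein, 456 and 893 in females and 378 and 638 in males, against 3191 and 8368 in oligodendrocytes. The myelin gene Mog did not pass but was higher after cocaine within each sex, and read 103 and 188 in females and 86.2 and 174 in males (0.89 ± 0.26, adjusted p = 0.089). Beside these calls, the oligodendrocyte list, the lymphocyte list and the spiny-neuron list were each higher in both cocaine libraries than in either saline one, the last at 645 and 787 CPM in females and 680.3 and 808 in males. Of single genes tested, 19.2% were in that order too. The part of RNA from those cells in these calls was not tested.

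**Figure D4:**
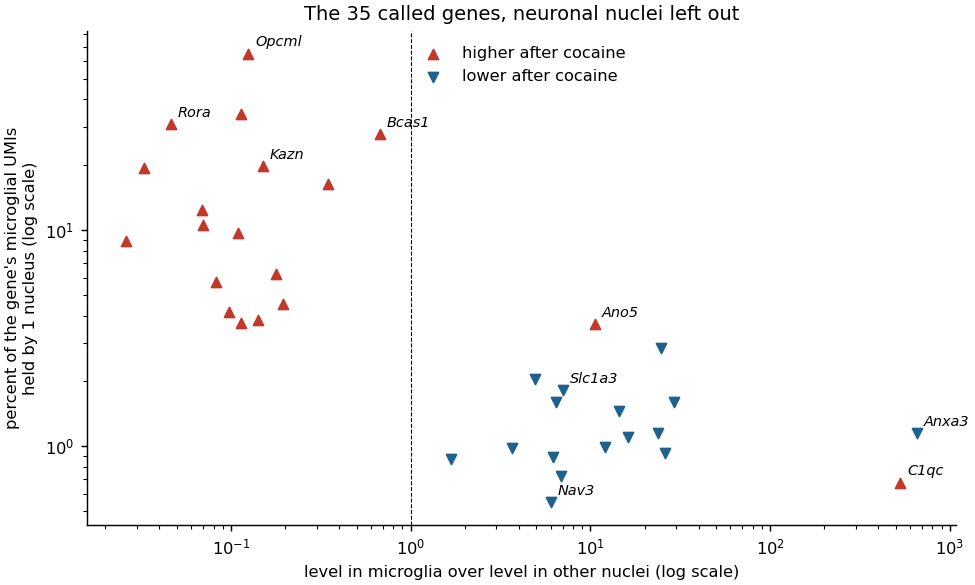
The 35 genes called without neuronal nuclei, with the level in microglia over that in other nuclei on the horizontal axis and the percent of the gene's microglial UMIs held by 1 nucleus on the vertical axis (both log scales), red for higher and blue for lower after cocaine. The 16 lower genes lie right of 1 with at most 2.83% in 1 nucleus, and 17 of the 19 higher genes lie left of 1, with up to 65.1%.

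Of the 12 lists of state genes, none had a called member over all nuclei, and 4 of the 117 genes tested in any list were called without neuronal nuclei (3.42%, beside 0.568% of all genes tested). Under an unadjusted 0.05 there were 22 of the 117 (18.8%, beside 7.96%). The lists were chosen with earlier results known, and nothing is read from these shares. Of the homeostatic list, the genes of resting microglia, 19 of 22 were tested and none was called in either set (medians -0.09 over all nuclei and -0.07 without neuronal nuclei, beside 0.01 and 0.00 for all genes tested). Selplg, a selectin ligand, read 1538 and 1744 in females and 1686 and 1639 in males without neuronal nuclei, Tgfbr1, a TGF-beta receptor, 1619 and 1719 in females and 2003 and 1769 in males and the transcription factor Mef2c 2125 and 1894 in females and 2194 and 2034 in males. P2ry12 read 829 and 643 in females and 814 and 961 in males, with the cocaine females lowest and the cocaine males highest (-0.11 ± 0.13, adjusted p = 0.921). Csf1r and Cx3cr1, which the gate used, read 1232 and 1189 in females and 1356 and 1504 in males and 1219 and 1325 in females and 1552 and 1718 in males.

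Of 11 complement and Fc receptor genes tested, C1qc was the one called, and it rose (list medians -0.04 and -0.05). The lysosome and phagocytosis list had 16 genes tested, none called, and medians of 0.06 in both sets. Mertk, a receptor for dying cells, read 2804 and 2601 in females and 2386 and 2037 in males and Elmo1, an engulfment adaptor, 2503 and 2025 in females and 2357 and 1874 in males, each lower in both cocaine libraries within its sex (Elmo1 adjusted p = 0.089).

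Genes of the plaque-associated state, a lipid and lysosome programme that microglia take on near amyloid and damage, lay above 0 in all 7 members tested of 16 listed, in both sets. None was called, with a median of 0.50 in both sets and 4 of 7 under an unadjusted 0.05 without neuronal nuclei, beside 7.96% of all genes. Ctsl, a lysosomal protease, read 142 and 211 in females and 249 and 352 in males (0.50 ± 0.21, adjusted p = 0.407) and the growth factor Igf1 108 and 175 in females and 105 and 159.5 in males (0.63 ± 0.26, adjusted p = 0.433). The protease Ctsb read 309 and 311 in females and 302 and 413 in males and Apoe, a lipid carrier, 1163 and 1395 in females and 2103 and 2117 in males, with Apoe apart by sex and not by treatment. Cst7, Spp1 and Lgals3, which lead this programme in damaged brain, were at 0 in all 4 libraries, where 3 counts over the 831 nuclei, or 2.34 CPM, is the limit.

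Inflammatory and interferon genes gave little signal. Il1b, Ccl2 and Ptgs2 were at 0 in all 4 libraries, and 12 of 23 inflammatory genes were tested with none called (medians -0.10 and -0.08). Il18, a cytokine precursor, read 476 and 468 in females and 527 and 439 in males, the NF-kappaB subunit Nfkb1 312 and 316 in females and 355 and 341 in males and the interleukin-10 receptor Il10ra 179 and 147 in females and 182 and 141 in males. Of 18 interferon-response genes 4 were tested and none was called (medians -0.29 and -0.24). Isg15 and Ifit3 were at 0, and the antiviral Oasl2 read 93.2 and 118 in females and 129 and 76.1 in males.

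Genes that respond quickly to a stimulus summed higher after cocaine within each sex, at 231 and 324 CPM in females and 239.6 and 352 in males without neuronal nuclei. In all other nuclei the same list read 134 and 220.5 in females and 116 and 212 in males. This immediate-early list had 6 of 20 genes tested over all nuclei, with none called and a median of 0.96, and 3 without neuronal nuclei, with a median of 0.23. Fos and Fosb were at 0 once neuronal nuclei were left out, and Junb, an AP-1 subunit, read 81 and 97.8 in females and 86.2 and 102 in males (0.23 ± 0.31, adjusted p = 0.937), above 0 in all 26 fits. Klf6, a zinc-finger factor, read 61.3 and 61.8 in females and 43.1 and 61.6 in males, above 0 in 23 of them, and Jund, a further AP-1 subunit, read 2.45 and 33.5 in females and 19.2 and 43.5 in males (2.07 ± 0.67, adjusted p = 0.163). Of the glucocorticoid-responsive list 7 and 6 genes were tested with none called (medians 0.34 and 0.02). Fkbp5, a chaperone induced by the glucocorticoid receptor, read 807 and 944 in females and 484 and 685 in males (0.31 ± 0.14, adjusted p = 0.489), higher in females than in males. Nr3c1, the glucocorticoid receptor, read 437 and 342 in females and 364 and 329.9 in males (-0.29 ± 0.17, adjusted p = 0.716) and was below 0 in all 26 fits. The kinase Sgk1 read 162 and 95.2 in females and 129 and 174 in males (-0.26 ± 0.26, adjusted p = 0.903) and was below 0 in 25 of them.

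Receptors were read without any call. The list of purine, monoamine and transmitter receptors had 13 and 11 genes tested with none called (medians -0.12 and -0.07). P2rx7, an ATP-gated channel, read 1168 and 1168 in females and 1289 and 1059 in males and Entpd1, which breaks down extracellular ATP, 799.9 and 659 in females and 685 and 605 in males. Gabbr1, a GABA-B receptor subunit, read 95.7 and 183 in females and 95.8 and 156 in males (0.81 ± 0.27, adjusted p = 0.174), both cocaine libraries above both saline ones, as in 19.2% of genes tested. P2ry14, a receptor for UDP-sugars chosen after its values were seen, showed the same order, 101 and 180.1 in females and 76.7 and 163 in males (0.90 ± 0.27, adjusted p = 0.103).

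The cytokine and TGF-beta receptor list had Il6st as its one call, lower, among 15 tested (medians -0.11 and -0.07). Slc1a3 and Itga6 were the 2 calls, both lower, among 13 channel, transporter and adhesion genes (medians -0.14 and -0.13), where Slc9a9, an endosomal proton exchanger, read 2858 and 2416 in females and 2774 and 2429 in males. Myeloid transcription factors had medians of -0.22 in both sets, with 10 of 14 below 0, none called and 5 of 14 under an unadjusted 0.05 without neuronal nuclei, beside 7.96% of all genes. Ikzf1, a lymphoid and myeloid zinc-finger factor, read 1548 and 1238 in females and 1442 and 1193 in males (-0.33 ± 0.11, adjusted p = 0.214), and Runx1 878 and 651 in females and 666 and 598 in males.

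**Figure D5:**
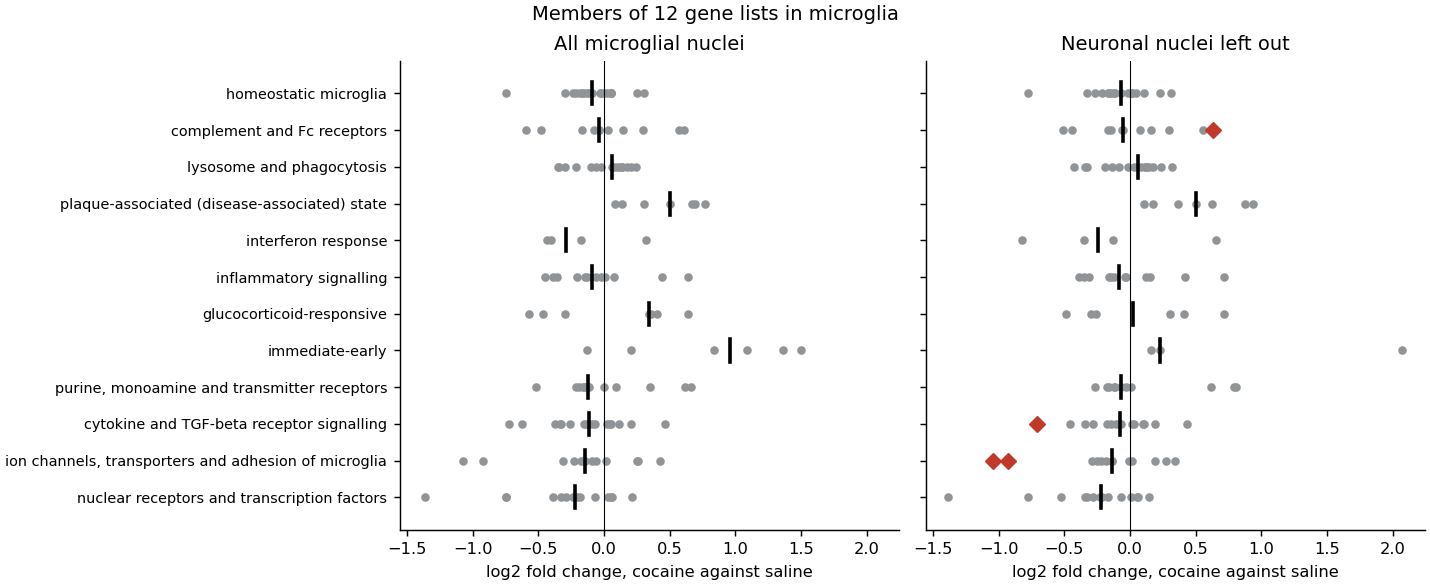
Log2 fold change, cocaine against saline, (horizontal axis) of each tested member of 12 gene lists (vertical axis), with grey points not called, red diamonds called and bars at the medians, for all 891 nuclei and for the 831 with fewer than 3 neuronal UMIs. Most lists straddle 0, and the plaque-associated list lies above 0 in both panels, with a median of 0.50.

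The cocaine difference in microglia was set against that in the 6897 oligodendrocyte nuclei of the same libraries, with library as a block. Those nuclei had 3 or more UMIs of Mog, Mobp, St18, Mag and Aspa and at most 1 of the 5 microglial gate genes. The limits on Gad1 plus Gad2 and on Drd2 plus Ebf1 were the same. They were never filtered by the 13 neuronal genes, so leaving out neuronal nuclei changed the microglial side alone. Over all nuclei 0 of 11966 genes differed (0.0%, with 340, or 2.84%, under an unadjusted 0.05). Without neuronal nuclei 25 of 11560 did (0.216%, with 5.66% under an unadjusted 0.05), 13 with the larger log2 difference in microglia (0.112%) and 12 with the smaller (0.104%). Slc1a3 differed by -1.01 (edgeR adjusted p = 0.006), with oligodendrocytes near level at -0.05, and Itga6 by -1.19 (adjusted p = 0.0343), against 0.27 in oligodendrocytes.

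edgeR called more genes between the sexes than between the treatments. Over all nuclei it called 35 of 7922 genes (0.442%), 2 higher in females (0.0252%) and 33 lower (0.417%), with 9.96% under an unadjusted 0.05. That count moved with the neuronal nuclei, whose share of UMIs was larger in males. Without them 52 of 6167 (0.843%) were called, 14 higher in females (0.227%) and 38 lower (0.616%), with 8.08% under an unadjusted 0.05, and DESeq2 called 1. Cst3, a secreted protease inhibitor and one of the most abundant microglial RNAs, read 3680.4 CPM after saline and 4163 after cocaine in females, and 6296 and 6953 in males, a difference of -0.76 ± 0.09, female against male (adjusted p = 2.47e-14). Apoe was lower in females by the same measure, -0.73 ± 0.11 (adjusted p = 1.67e-08). In both genes neither female library reached the lower male one, but the share of all genes tested in that order was not counted.

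The C1q genes were also lower in females without neuronal nuclei, with log2 differences, female against male, of -0.46 for C1qa, -0.48 for C1qb and -0.57 for C1qc. Fkbp5 (0.58, adjusted p = 0.00571), the cell-cycle gene Ccnd3 (0.57) and the DNA repair gene Rad51b (0.53) were higher. Border macrophage markers were higher in the males, as given above. With those nuclei left out as well, 13 of 6051 genes were called, Cst3 (adjusted p = 0.000597) and Apoe (0.01) among them, and the adjusted p was 0.295 for C1qa, 0.234 for C1qc and 0.207 for Fkbp5. In that fit edgeR did estimate variation in spread from gene to gene. The part of border macrophage nuclei in these p-values thus cannot be told apart from that of the model. Female microglia were also deeper in both treatments, and the part of depth in these differences was not tested. Sex was carried by 1 pool of 4 rats per treatment, so sex and pool differences other than treatment cannot be told apart.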

How the data were processed

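Single-nucleus RNA was measured in 4 libraries, 1 for each sex and treatment. The authors deposited raw UMI counts per gene and nucleus, from Cell Ranger 6.1.2 per the file headers. The build rn7 is listed in the submitters' processing notes, and the aligner settings and annotation are not given in the sources used for this work. Counts of the gated nuclei were summed per library and tested with edgeR 4.0.16 in R 4.3.3 (quasi-likelihood, TMM, filterByExpr, sex and treatment, Benjamini-Hochberg at 0.05), with DESeq2 1.42.0 as an alternative. The fits were also run on simulated counts with known changes, where each gene had the same spread and sex had no effect. They had to recover the direction of change, so that check does not bear on how many genes were called. Doublets were called with Scrublet in scanpy 1.11.5. Levels are CPM, UMIs per 1e6 UMIs of the microglial sum. A library is 1 replicate. The gate, gene lists and comparisons were chosen with earlier results of these data known. The rule for named genes takes called genes by smallest adjusted p, the 3 most abundant and any called of each list, the 20 with the largest ratio to other nuclei, up to 5 each way for sex and 5 for the difference from oligodendrocytes, and where under 20 were called up to 8 each way that were not. Symbols are those of the files. 7162 of 30560 features have only an identifier. Alternatives changed the gate, the filter, the scaling, the model and the libraries. A few genes of the lists are not reported here.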

Additional observations from a re-analysis of the deposited data

Results flagged for a closer look

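In the 831 microglial nuclei with fewer than 3 neuronal UMIs, 25 genes had a cocaine difference unlike that in oligodendrocytes of the same libraries, and the 5 with the smallest p are given here, by edgeR's test of the class-by-treatment term. Opcml differed by 3.40 on the log2 scale (adjusted p = 0.000789), with, in CPM here and below, 27 and 56.6 in females and 24 and 653 in males in microglia and 65.1% of its microglial UMIs in 1 nucleus. Kazn differed by 2.07 (adjusted p = 0.000808), with 51.5 and 149 in females and 14.4 and 181 in males in microglia and 1272 and 1352 in females and 660.1 and 875 in males in oligodendrocytes. Nav3 differed by -1.29 (adjusted p = 0.000789), and it was lower in microglia (-0.51) while oligodendrocytes read 58.7 and 162 in females and 81.7 and 90.3 in males (0.78, adjusted p = 0.237). Hdac9, a histone deacetylase, differed by -2.00 (adjusted p = 6.01e-05), with 2277 and 1732 in females and 1782 and 1649.5 in males in microglia and 11 and 59.3 in females and 13.4 and 23.4 in males in oligodendrocytes. Kcnip4, a potassium channel partner, differed by -2.04 (adjusted p = 0.000691), with 145 and 126 in females and 101 and 112 in males in microglia and 84.4 and 617 in females and 133 and 203 in males in oligodendrocytes. In Hdac9 and Kcnip4 the library farthest from the others was the cocaine female library of the oligodendrocytes. The oligodendrocyte nuclei were not filtered by the 13 neuronal genes, and the part of neuronal RNA in these differences was not tested.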

How the results depend on the processing

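The cocaine comparison over all nuclei, with 0 genes called, gave 35 without neuronal nuclei, 5 with border macrophage nuclei out too, 5 under the combined gate, 1 at 5 or more gate UMIs, 7 with doublets removed, 6 with other-glia nuclei out and 15 with no filter. With neuronal nuclei out it gave 1 by DESeq2, 38 with expected background subtracted and 4 with no sex term. Leaving out 1 library gave 0 to 331 over all nuclei (215 without saline replicate 1, the females, and 331 without saline replicate 2, the males) and, without neuronal nuclei, 0, 24, 37 and 14 without saline 1, cocaine 1, saline 2 and cocaine 2. Members of the 12 lists called went from 0 to 4 without neuronal nuclei (4 with background subtracted, 2 with no sex term, 1 by DESeq2), 2 with border macrophage nuclei out, 2 under the combined gate, 1 at 5 gate UMIs and 2 with no filter, and 0 to 9 on leaving out 1 library (0, 3, 4 and 2 without neuronal nuclei). Female against male, 35 over all nuclei, gave 52 without neuronal nuclei, 13 with border macrophage nuclei out too, 15 under the combined gate, 4 without Arhgap15, 10 at 5 gate UMIs, 2 at 500 genes, 75 with doublets removed, 2 with macrophage and lymphocyte nuclei out, 12 with other-glia nuclei out, 2 without TMM, 259 with no filter, 0 by DESeq2 and 1 by DESeq2 without neuronal nuclei. Leaving out 1 library gave 0 to 511, or 17, 33, 32 and 25 in that order without neuronal nuclei. The difference from oligodendrocytes, 0 over all nuclei, gave 25 without neuronal nuclei and 14 under the combined gate. The share difference of 0.465 points kept its sign throughout, at 0.1 to 0.83, and the groups did not overlap with other-glia nuclei out (0.291) or under the combined gate (0.194). Opcml reversed to 3.18 without neuronal nuclei (4.60 and 3.57 on leaving out 1 library), Rora to 1.99 (6.93 with background subtracted and 1.83, 2.08 and 3.00 on leaving out 1 library) and Dpp10 to -0.95 without saline replicate 1 (1.14 without saline replicate 2). The cause was not tested. Each fit that left out 1 library held treatment alone or sex alone, without the other term, and left 1 library in a group. The part of the dropped term in those counts and signs was not tested. The labels give no replicate numbers (1 and 2 are names in accession order, here the female and the male library) and pair libraries by sex alone; that pairing is the sex term of the model, and without it 0 genes were called over all nuclei and 4 without neuronal nuclei. Depth limits the sums: 3 counts are 1.66 CPM over the 891 nuclei and 2.34 over the 831.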
